A study of Mus musculus with 36 samples.

Results

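Luminal cells of the mammary gland are guided by hormone receptors and by a small set of transcription factors, and 9 genes of that kind were followed here among the 21650 genes of the deposited expression table: Esr1, Pgr, Prlr, Gata3, Foxa1, Elf5, Spdef, Stat5a and Stat5b. They were chosen by name, for what their products are known to do, but with earlier results of these data known. Their counts beside the shares of all genes are therefore a description. Each was found as 1 row of the table. RNA was sequenced from 36 libraries, 3 in each of 12 groups, taken 1 week, 3 weeks or 6 weeks post-inoculation (w p.i.). 4T1 tumors, from luciferase-expressing cells of a metastatic BALB/c mammary tumor line, were grown in BALB/c females. Py230 tumors, from a line derived from a mammary tumor of an MMTV-PyMT mouse (a transgene that drives a viral oncogene in mammary epithelium), were grown in C57BL/6 females. Mammary glands of both strains that had received only the Matrigel carrier served as controls. All females had been mated as young adults, were lactating and were inoculated into the duct of the third gland after their pups had been weaned, so every group also carries the regression of a lactating gland. Each tumor model is 1 cell line in 1 strain, and cell line and strain cannot be told apart when tumors are compared with each other. More cells were inoculated for Py230 than for 4T1 tumors, so the cell dose cannot be told apart from them either. The Matrigel glands show the strain difference without a tumor.

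Oestrogen receptor alpha (Esr1) acts in a subset of luminal cells, where it opens its sites together with the pioneer factor FOXA1 and with GATA3, and the progesterone receptor (Pgr) is one of its classical targets. Prolactin binds its receptor (Prlr), whose kinase JAK2 activates the closely related factors STAT5A and STAT5B, and these act with ELF5 in alveolar cells to build the milk-secreting epithelium of pregnancy and lactation. SPDEF, like ELF5 an ETS factor, is known from luminal and other secretory epithelia. Breast tumors are named triple-negative when the oestrogen receptor, the progesterone receptor and the receptor HER2 are absent from the tumor cells by clinical criteria, and the study uses both lines as models of that disease.

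The deposited values are scores. In every library the scores average 0 over all genes and their SD is 1, so a score of 1 lies 1 SD of the gene levels above the mean gene of that library, and a negative score lies below it. Across the 13567 genes whose mean normalized count in the authors' tables was 100 or more, 1 score unit went with 2.78 log2 units of that count (r = 0.972, across genes, which are not independent replicates). The study's methods give a depth aimed at, but the depth each library reached cannot be recovered from scores and is unknown here. Each standard error (SE) below rests on 1 spread per gene, shared by all 36 libraries. It does not show how the spread differed between groups of 3 libraries. No library was a copy of another, the highest correlation between any 2 being 0.993. Each difference below comes from limma fitted on all genes and all 12 groups, with p-values adjusted over all genes (Benjamini-Hochberg), and a gene is said to differ at an adjusted p under 0.05. Intervals are 95% confidence intervals of limma. An exact permutation test of 3 libraries against 3 cannot go below p = 0.10, and nothing in the labels says how the libraries of a group relate beyond their being separate tumors or glands.

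On the scale of the authors' mean normalized count per kb of exon, averaged over all libraries, Gata3 was the most abundant member with 508 (percentile 90.0 of all genes), followed by Prlr with 437, Elf5 with 345, Foxa1 with 311, Stat5b with 305 and Stat5a with 188. The nuclear receptors stood lower, Esr1 with 79.3 (percentile 52.6) and Pgr with 62.2 (percentile 47.0), and Spdef was lowest with 35.3 (percentile 35.9). All 9 exceeded a mean count of 10, so no member was lost to a filter. The genes lie on 7 chromosomes of mm10, Stat5b (chromosome 11, 100780731 to 100850724, minus strand) and Stat5a (100859351 to 100885169, plus strand) being neighbours that point away from each other. As near-identical copies these last genes can share reads, and how the authors' counting divided such reads was not given, so their separate values are less certain than the others.

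**Figure D1:**
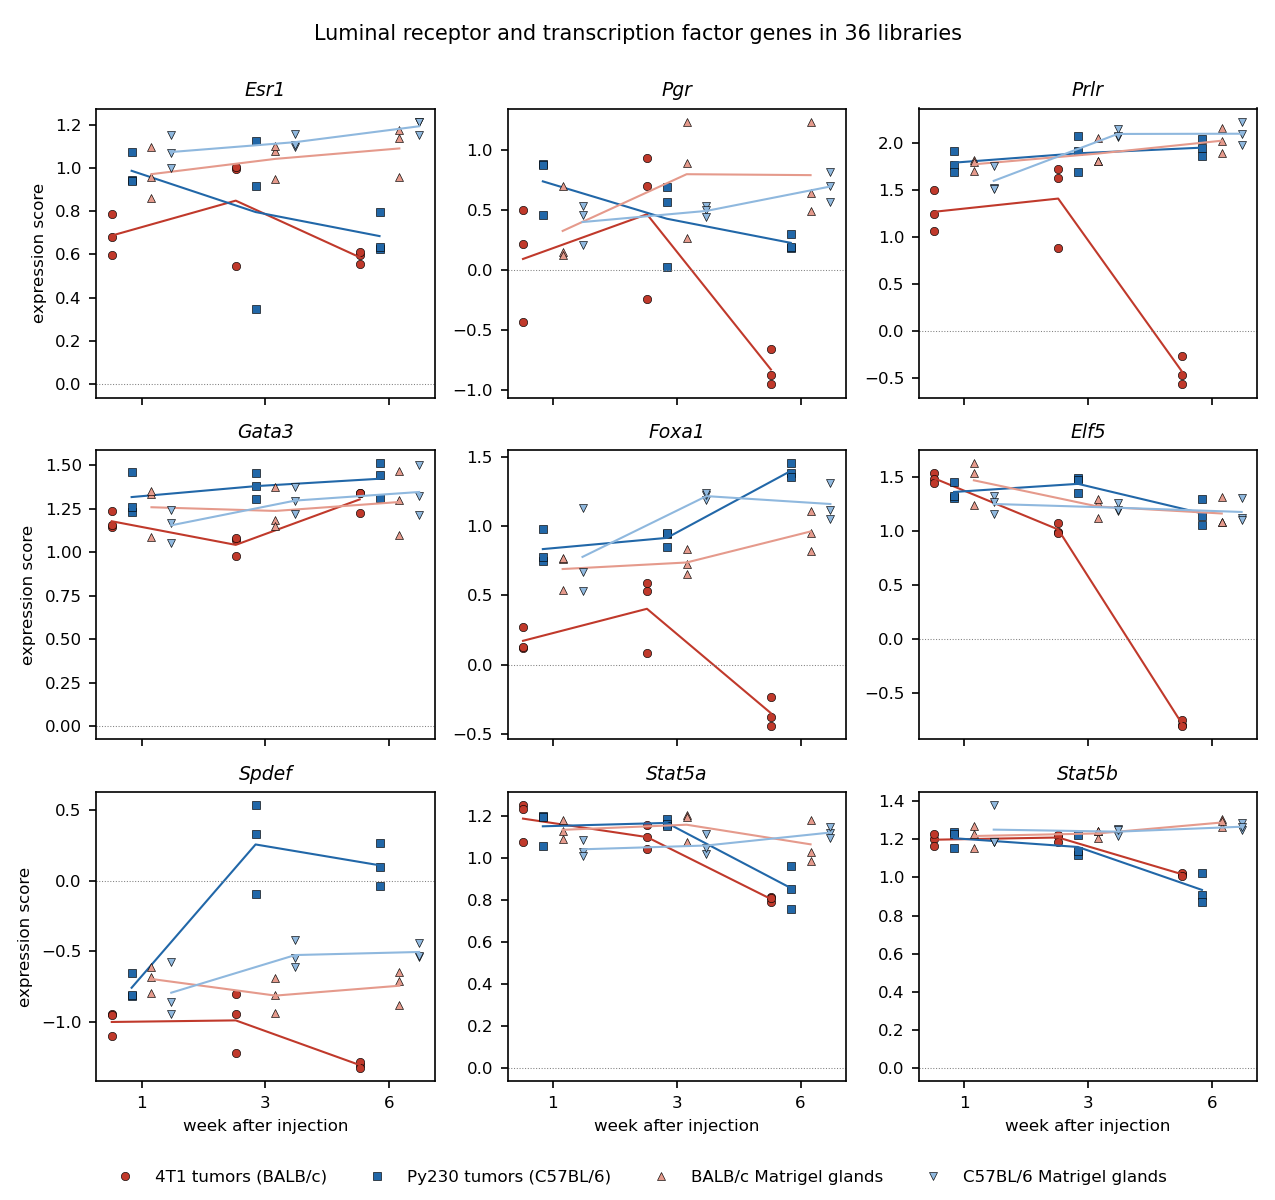
Expression score (vertical axis, no unit, mean 0 and SD 1 within a library) of the 9 genes by week after injection, with 1 point per library, 3 libraries per group, and lines joining group means. The 4T1 tumors of week 6 sit below every other library for Prlr, Pgr, Foxa1, Elf5 and Spdef, Spdef rises in Py230 tumors after week 1, and Gata3 stays between 0.98 and 1.51 in all 36 libraries.

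From 3 to 6 w p.i., 7 of the 9 genes fell in 4T1 tumors, Gata3 rose and Esr1 did not pass (-0.26, adjusted p = 0.0761). Of the 7, Stat5a and Stat5b also fell in Py230 tumors, as did Elf5. In that step 18.8% of all genes fell and 34.2% rose in 4T1 tumors. In Py230 tumors 2.06% of all genes fell and 3.96% rose. At 6 w p.i., 5 of the 9 genes were lower in 4T1 compared to Py230 primary tumors (Prlr, Elf5, Foxa1, Spdef and Pgr) and 0 were higher, where 40.8% of all genes differed, 16.7% being lower and 24.1% higher. The differences of these 5 genes in score were from -2.39 to -1.055, and the median over the 9 members was -1.055 beside 0.036 over all genes. The count was 5 lower at 3 w p.i. (Prlr, Gata3, Spdef, Elf5 and Foxa1) against 30.3% of all genes differing and 18.5% lower, and 2 lower at 1 w p.i. (Prlr and Foxa1) against 19.4% and 8.43%. Esr1, Stat5a and Stat5b did not differ between the tumors at any of the 3 time points.

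Among the receptors, Prlr had the widest span. Its scores in 4T1 tumors were 1.24, 1.49 and 1.06 at 1 w p.i., 0.88, 1.72 and 1.62 at 3 w p.i., and -0.47, -0.57 and -0.27 at 6 w p.i. The 9 Py230 tumors scored from 1.69 to 2.07 and the 18 Matrigel glands from 1.51 to 2.23, so that the week 6 4T1 tumors stood apart from all other libraries. The difference between 4T1 and Py230 tumors was -0.52 (SE 0.15, adjusted p = 0.0144) at 1 w p.i., -0.48 (SE 0.15, adjusted p = 0.0141) at 3 w p.i. and -2.39 (SE 0.15, adjusted p = 9.41e-13) at 6 w p.i. The tumor values overlapped at 3 w p.i., and that call rested on 4T1 replicate 1, the low one of the 3. Without it the difference was -0.22 (adjusted p = 0.173), and it was also lost without Py230 replicate 3 of that week (adjusted p = 0.0608). At 1 w p.i. the call was lost when Py230 replicate 1 or either of 4T1 replicates 1 and 3 was left out (adjusted p from 0.0561 to 0.104). The week 6 difference passed without any single library of the groups compared.

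Pgr varied more between libraries of a group than any other member. Its scores in 4T1 tumors were 0.21, 0.50 and -0.44 at 1 w p.i., -0.24, 0.93 and 0.70 at 3 w p.i., and -0.87, -0.95 and -0.66 at 6 w p.i. In Py230 tumors of 6 w p.i. they were 0.18, 0.19 and 0.30, and the tumor groups did not overlap. That difference was -1.055 (SE 0.26, adjusted p = 0.00209), whereas the difference of -0.65 at 1 w p.i. did not pass (adjusted p = 0.0841) and that at 3 w p.i. was 0.037, with a 95% confidence interval of -0.51 to 0.58.

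Esr1, the receptor that names oestrogen-responsive tumors, did not pass between the tumors in any week. In the first week it scored 0.60, 0.79 and 0.68 in 4T1 and 1.08, 0.94 and 0.94 in Py230 tumors, without overlap, a difference of -0.30 (SE 0.12, adjusted p = 0.0858). Its scores at 6 w p.i. were 0.56, 0.60 and 0.61 in 4T1 tumors and 0.62, 0.63 and 0.80 in Py230 tumors. Both tumor groups lay below the glands, which scored from 0.86 to 1.21 over all 18. The week 6 difference between tumors was -0.098 (95% confidence interval -0.35 to 0.16, adjusted p = 0.570). Replicate 1 of 3 w p.i. was the lowest of its group in both models, with 0.55 in 4T1 and 0.35 in Py230 tumors against 0.91 to 1.12 in the other libraries.

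Foxa1 scored 0.12, 0.27 and 0.12 in 4T1 tumors and 0.98, 0.75 and 0.77 in Py230 tumors at 1 w p.i., without overlap. By 6 w p.i. it scored -0.23, -0.38 and -0.44 in 4T1 and 1.39, 1.36 and 1.45 in Py230 tumors, the lowest and the highest of the 12 group means. The differences were -0.66 (SE 0.12, adjusted p = 0.000505), -0.51 (SE 0.12, adjusted p = 0.00217) and -1.75 (SE 0.12, adjusted p = 7.86e-12) from the first to the last time point. Foxa1 was also the only member that differed between the Matrigel glands, by -0.48 (adjusted p = 0.0181) at 3 w p.i., where BALB/c glands scored 0.65, 0.72 and 0.83 and C57BL/6 glands 1.19, 1.23 and 1.24. With the gland difference of the same week subtracted, the tumor difference of Foxa1 was -0.57 (adjusted p = 0.0855) at 1 w p.i., -0.033 (adjusted p = 0.927) at 3 w p.i. and -1.55 (adjusted p = 1.42e-07) at 6 w p.i. The gland call itself was lost without BALB/c replicate 1 or 2 or C57BL/6 replicate 2 or 3 (adjusted p from 0.0700 to 0.0976).

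Gata3, a factor that luminal cells need to keep their identity, moved least among the genes of the oestrogen receptor circuit. Its 12 group means ran from 1.04 to 1.42. The 4T1 tumors of 3 w p.i. were lowest with 1.07, 0.98 and 1.08, below the Py230 tumors of that week (1.45, 1.38 and 1.30) by 0.34 in score (SE 0.088, adjusted p = 0.00496). In the last week the 4T1 tumors scored 1.34, 1.34 and 1.23 and the Py230 tumors 1.45, 1.31 and 1.51, a difference of -0.12 with a 95% confidence interval of -0.30 to 0.062. Against BALB/c glands the week 6 difference was 0.015 (interval -0.17 to 0.20).

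Elf5, the alveolar ETS factor, went from the top of its range to the bottom within the 4T1 model. Its scores were 1.54, 1.48 and 1.45 at 1 w p.i., 0.99, 0.98 and 1.07 at 3 w p.i. and -0.80, -0.75 and -0.80 at 6 w p.i., with no overlap between the weeks. In the 9 Py230 tumors they ran from 1.05 to 1.49 and in the 18 glands from 1.08 to 1.63. The difference between tumors was 0.13 (adjusted p = 0.270) at 1 w p.i., -0.42 (SE 0.079, adjusted p = 0.000264) at 3 w p.i. and -1.95 (SE 0.079, adjusted p = 3.03e-16) at 6 w p.i. In 4T1 tumors the step from 1 to 3 w p.i. was -0.47 (adjusted p = 0.00623) and that from 3 to 6 w p.i. -1.80 (adjusted p = 1.81e-14). Elf5 was the only member that fell in the first step, in which 0.628% of all genes changed (0.374% downward), and the call was lost without 4T1 replicate 1 of 1 w p.i. (adjusted p = 0.0534).

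Spdef rose in Py230 tumors after the first time point. It scored -0.65, -0.81 and -0.81 there at 1 w p.i., 0.53, 0.33 and -0.10 at 3 w p.i. and 0.10, -0.04 and 0.26 at 6 w p.i. In the 9 4T1 tumors it scored from -1.32 to -0.80 and in the 18 glands from -0.94 to -0.42, so every Py230 tumor of 3 and 6 w p.i. lay above every other library. The rise in Py230 tumors from 1 to 3 w p.i. was 1.01 (SE 0.12, adjusted p = 2.99e-06). Between the tumors the difference of -0.24 at 1 w p.i. did not pass (adjusted p = 0.153). It was -1.24 (adjusted p = 2.30e-08) at 3 w p.i. and -1.41 (adjusted p = 3.53e-10) at 6 w p.i.

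Stat5a and Stat5b kept high scores in all libraries and fell late in both models. Stat5a scored 0.81, 0.79 and 0.81 in 4T1 and 0.85, 0.76 and 0.96 in Py230 tumors of 6 w p.i., where the other 30 libraries scored from 0.99 to 1.25. For Stat5b the week 6 scores were 1.02, 1.02 and 1.01 in 4T1 and 0.91, 0.87 and 1.02 in Py230 tumors, below the range of 1.12 to 1.38 in the other 30. From 3 to 6 w p.i. Stat5a fell by 0.295 in 4T1 (adjusted p = 4.56e-05) and by 0.31 in Py230 tumors (adjusted p = 0.000523). The fall of Stat5b was 0.19 in 4T1 (adjusted p = 0.000314) and 0.23 in Py230 tumors (adjusted p = 0.000982). Between the tumors at 6 w p.i. the differences were -0.052 for Stat5a (95% confidence interval -0.16 to 0.056) and 0.082 for Stat5b (-0.0019 to 0.17).

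**Figure D2:**
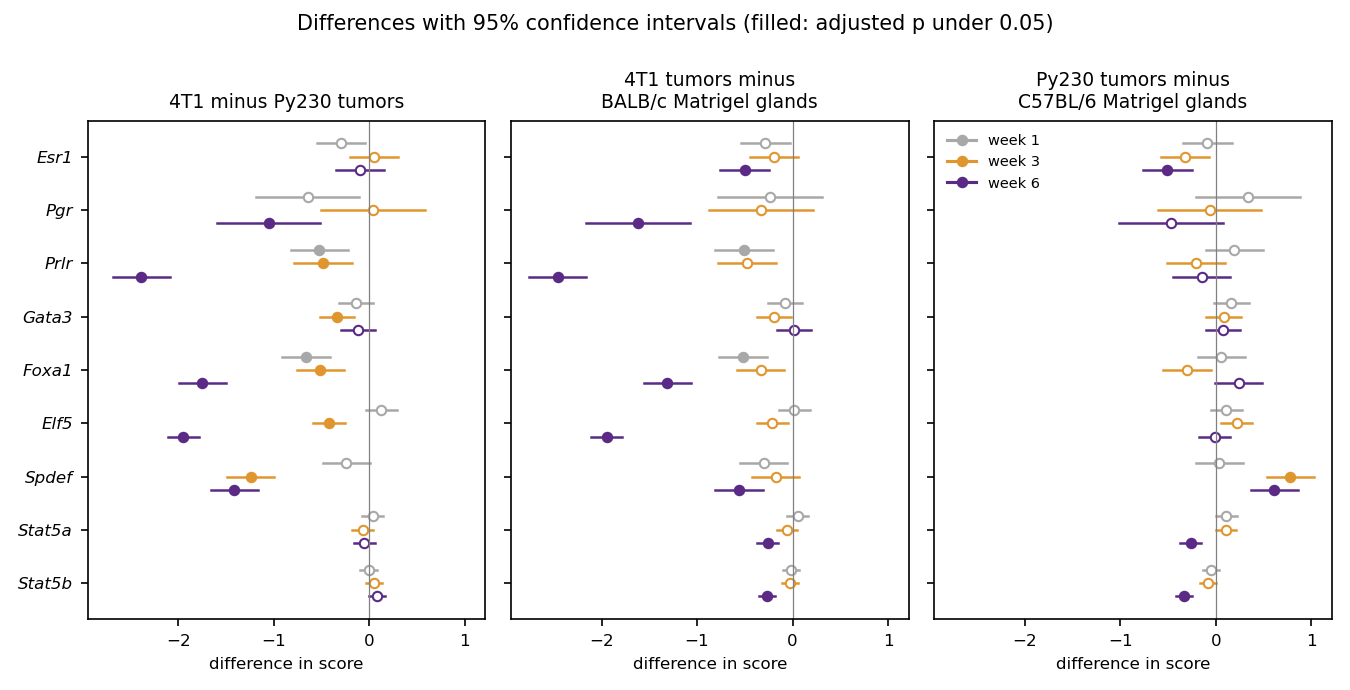
Differences in score (horizontal axis) of the 9 genes at weeks 1, 3 and 6, as points with 95% confidence intervals from limma, for 4T1 minus Py230 tumors and for each tumor minus the Matrigel glands of its strain. Filled points have an adjusted p under 0.05, and at week 6 Prlr, Elf5, Foxa1 and Pgr lie more than 1 score unit below 0 against both Py230 tumors and BALB/c glands.

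Each tumor was next set against the Matrigel glands of its strain. At 6 w p.i., 8 of the 9 genes were lower in 4T1 tumors than in BALB/c glands, all except Gata3, at a time when 60.1% of all genes differed and 21.5% were lower. The differences ran from -0.26 for Stat5a to -2.46 for Prlr (adjusted p = 1.00e-12), with -1.95 for Elf5, -1.62 for Pgr and -1.31 for Foxa1. At 1 w p.i. only Prlr (-0.51, adjusted p = 0.0229) and Foxa1 (-0.52, adjusted p = 0.00855) were lower, with 16.6% of all genes differing and 6.72% lower, and both calls were lost without 4T1 replicate 1 or replicate 3 or BALB/c gland replicate 2, that of Prlr also without BALB/c gland replicate 1. In 4T1 tumors of 3 w p.i. limma called 0 members while 3.25% of all genes differed, and 4 members (Prlr, Gata3, Elf5 and Foxa1) beside 21.2% of all genes had an unadjusted p under 0.05, all with a negative difference. Without 4T1 replicate 2 or replicate 3 of that week, 1 member passed, and the share of all genes was not computed for those fits.

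Py230 tumors were set against C57BL/6 glands in the same way. At 1 w p.i. limma called 0 members, in a comparison in which 0.00924% of all genes differed, and 1 had an unadjusted p under 0.05 beside 7.15% of all genes. By 3 w p.i. Spdef was higher by 0.78 (SE 0.12, adjusted p = 8.35e-05), as the only member called beside 19.7% of all genes (12.8% higher). Elf5 stood just outside the threshold there with 0.22 (unadjusted p = 0.0099). By 6 w p.i. Spdef was higher by 0.61 (adjusted p = 0.000172), while Esr1 (-0.51, adjusted p = 0.00142), Stat5a (-0.26, adjusted p = 0.000218) and Stat5b (-0.33, adjusted p = 6.61e-07) were lower, with 47.6% of all genes differing, 28.8% higher and 18.7% lower. Prlr and Elf5 did not pass, their differences from the glands being -0.15 (95% confidence interval -0.45 to 0.15) and -0.013 (-0.18 to 0.15).

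The change from gland to tumor was then compared between the models in a single term of the fit. In the last week it was more negative in the 4T1 model for Prlr (-2.31, adjusted p = 6.28e-09), Elf5 (-1.93, adjusted p = 7.97e-12), Foxa1 (-1.55, adjusted p = 1.42e-07), Spdef (-1.17, adjusted p = 8.28e-06) and Pgr (-1.15, adjusted p = 0.0241), 5 of 9 members beside 25.5% of all genes (11.1% more negative). The term of Pgr was lost without 4T1 replicate 2 (adjusted p = 0.0552), BALB/c gland replicate 3 (0.0797) or C57BL/6 gland replicate 2 (0.0532). The term of 3 w p.i. passed for Spdef (-0.96, adjusted p = 0.00109) and Elf5 (-0.43, adjusted p = 0.0174), with 9.15% of all genes (6.51% more negative), and Elf5 was lost without Py230 replicate 1 (adjusted p = 0.0660). At 1 w p.i. limma called 0 members and 0.305% of all genes, and 2 members had an unadjusted p under 0.05 beside 17.9% of all genes. For Esr1, Stat5a and Stat5b the week 6 term was 0.0049, 0.0040 and 0.060, the widest 95% confidence interval being that of Esr1, -0.35 to 0.36.

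Over time, 8 members changed in 4T1 tumors from 3 to 6 w p.i., where 53% of all genes changed, 34.2% upward and 18.8% downward. Prlr (-1.84), Elf5 (-1.80), Pgr (-1.29), Foxa1 (-0.75), Spdef (-0.32), Stat5a and Stat5b fell, and Gata3 rose by 0.26 (adjusted p = 0.0148). The rise of Gata3 was lost without replicate 2 of 3 w p.i. or replicate 2 of 6 w p.i., and the fall of Spdef (adjusted p = 0.0290) without replicate 2 or 3 of 3 w p.i. or any replicate of 6 w p.i. In Py230 tumors 20% of all genes changed from 1 to 3 w p.i. (12.8% upward), Spdef alone among the members, and 6.03% from 3 to 6 w p.i. (3.96% upward and 2.06% downward), when Foxa1 rose by 0.48 (adjusted p = 0.0159) and Stat5a, Stat5b and Elf5 (-0.27, adjusted p = 0.0387) fell. Without Py230 replicate 1 or 2 of 6 w p.i. neither Foxa1 nor Elf5 passed, and Elf5 was also lost without any replicate of 3 w p.i. In the Matrigel glands limma called 0 members in either step. In BALB/c glands 0.0139% and 0% of all genes changed, and 1 and 0 members had an unadjusted p under 0.05 beside 3.49% and 5.58% of all genes. In C57BL/6 glands 0.129% and 0.217% of all genes changed, and 3 and 0 members had an unadjusted p under 0.05 beside 6.52% and 7.59%. The glands of both strains differed in 0 members at 1 w p.i. by limma (3.06% of all genes; 1 member at an unadjusted p under 0.05 beside 12.1%), in Foxa1 at 3 w p.i. (3.77%) and in 0 at 6 w p.i. (3.84%; 0 members at an unadjusted p under 0.05 beside 13.9%).

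Because Prlr, Foxa1, Elf5 and Pgr fell together in 4T1 tumors, the bases before their start sites are shown, from RefSeq windows on GRCm38.p6 (the assembly called mm10), cut to the stretch outside annotated exons. Capitals mark letters of 6 motifs searched on both strands. The STAT5 motif was taken as TTCNNNGAA. The palindromic oestrogen response element was searched whole and as a single arm, AGGTCA, so that these motifs can overlap. The forkhead motif, the one bound by FOXA1 and related factors, was TGTTTAC. For GATA factors such as GATA3 the letters searched were AGATAA. For ETS factors, the family of ELF5 and SPDEF, they were CAGGAAG, and no site particular to either factor was searched.
Prlr, start site at 10223906, chr15:10223656-10223905, plus strand: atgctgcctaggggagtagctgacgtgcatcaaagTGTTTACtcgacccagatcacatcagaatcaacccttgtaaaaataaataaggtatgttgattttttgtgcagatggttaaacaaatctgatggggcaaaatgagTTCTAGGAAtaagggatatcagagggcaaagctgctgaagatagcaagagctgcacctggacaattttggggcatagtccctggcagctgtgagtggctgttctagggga
Foxa1, chr12:57546122-57546361, minus strand: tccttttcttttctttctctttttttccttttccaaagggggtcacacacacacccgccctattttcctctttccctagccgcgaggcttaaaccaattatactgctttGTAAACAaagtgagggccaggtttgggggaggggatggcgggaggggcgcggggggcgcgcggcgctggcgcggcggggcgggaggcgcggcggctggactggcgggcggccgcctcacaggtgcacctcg
Elf5, second of 2 start sites, chr2:103423818-103424061, plus strand: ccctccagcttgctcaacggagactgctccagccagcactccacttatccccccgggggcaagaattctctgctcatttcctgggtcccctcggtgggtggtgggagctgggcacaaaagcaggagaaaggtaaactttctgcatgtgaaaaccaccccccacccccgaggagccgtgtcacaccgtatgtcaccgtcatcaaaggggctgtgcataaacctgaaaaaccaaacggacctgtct
Pgr, chr9:8899583-8899832, plus strand: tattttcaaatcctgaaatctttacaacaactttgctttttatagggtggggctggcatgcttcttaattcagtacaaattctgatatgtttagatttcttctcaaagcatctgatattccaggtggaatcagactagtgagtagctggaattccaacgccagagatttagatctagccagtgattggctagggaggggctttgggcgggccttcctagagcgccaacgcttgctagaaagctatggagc
The second of the 3 Prlr start sites, shown because it holds motifs of both kinds, has a STAT5 motif and a forkhead motif, whereas the window of the first holds none of the 6 and that of the third only an ETS motif, and Foxa1 has a forkhead motif on the reverse strand. In the printed stretches of Elf5 and Pgr none of the 6 motifs occurs. Over all 32851 RefSeq windows of 250 bases before a start site, 7.02% hold the STAT5 motif and 3.17% the forkhead motif. Of the 15 windows of the 9 members, 2 hold the STAT5 motif (Prlr and Esr1), 2 the forkhead motif, 3 the single arm (14% of all windows), 4 the ETS motif (10.8% of all windows) and 0 the full oestrogen response element (0.0639%) or the GATA motif (9.99%). A match of letters is a description of these bases, and binding was not measured.

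Genes of the same pathways were read from 4 lists. Of 9 measured oestrogen and progesterone response genes, 3 were lower and 0 higher in 4T1 compared to Py230 tumors at 6 w p.i., with a median difference of -0.17, beside the 16.7% of all genes that were lower and 24.1% that were higher. The smallest p-values were those of Cited1, a coactivator of the oestrogen receptor (-1.86, adjusted p = 7.41e-10), and Wnt4, which progesterone induces in the gland (-1.12, adjusted p = 9.81e-07). Cited1 scored -0.82 ± 0.065 (SD, n = 3) in 4T1 and 1.04 ± 0.11 in Py230 tumors, and it was the gene with the smallest p-value at 3 w p.i. as well (-0.56, adjusted p = 0.0117), when 1 of the 9 was lower and 0 higher (18.5% and 11.9% of all genes). At 1 w p.i. 2 were lower (Cited1 and Nrip1) and 0 higher (8.43% and 11% of all genes). Greb1 and Areg, classical oestrogen targets, did not pass at 6 w p.i.

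Of 13 other nuclear receptors and luminal cofactors, 7 were lower and 2 higher in 4T1 tumors at 6 w p.i., with a median of -0.20, beside 16.7% of all genes lower and 24.1% higher. Ehf, an ETS factor of epithelial cells, had a score of -0.65 ± 0.11 in the 4T1 group and of 1.59 ± 0.19 in the Py230 group (SD, n = 3), a difference of -2.24 (adjusted p = 2.54e-14). Tfap2c, an AP-2 factor of luminal cells, scored -0.46 ± 0.18 and 1.60 ± 0.046, a difference of -2.06 (adjusted p = 9.54e-14). Both had risen in Py230 tumors from 1 to 3 w p.i., by 0.67 (adjusted p = 0.000249) and 0.515 (adjusted p = 0.00248). Zfpm1, a partner of GATA factors, and Runx1 were the 2 that were higher in 4T1 tumors. The earlier counts were 5 of the 13 lower at 3 w p.i. and 3 at 1 w p.i. (18.5% and 8.43% of all genes), and 0 were higher at either time (11.9% and 11%).

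Around the prolactin receptor, the list moved both ways. Of 11 measured genes of the JAK2 and STAT5 route, 3 were higher and 3 lower in 4T1 tumors at 6 w p.i., with a median of 0.034, counts that lie near the shares of all genes (24.1% higher and 16.7% lower). Jak2, the kinase that Prlr engages, was higher by 0.63 (adjusted p = 5.98e-07) while Nfib, a factor of milk gene promoters, was lower by 0.54 in score (adjusted p = 6.05e-07). The STAT5-induced feedback genes Cish and Socs2 split, with 0.555 and -0.43 (adjusted p = 0.000136 and 4.02e-05). At 1 and 3 w p.i. the list had 3 genes higher with 1 lower, and 3 higher with 3 lower, where 11% and 11.9% of all genes were higher and 8.43% and 18.5% lower.

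The 8 milk protein genes, targets of STAT5 and ELF5 in alveolar cells, differed in opposite directions at the first and last time point. At 1 w p.i. 6 were higher in 4T1 tumors (11% of all genes) and 0 lower, led by Csn2 (1.16, adjusted p = 0.000110) and Wap (0.99, adjusted p = 0.000715), but 4 of the 8 were then also higher in BALB/c than in C57BL/6 glands, where 1.57% of all genes were. Then 3 were higher and 2 lower at 3 w p.i. (11.9% and 18.5% of all genes), and by 6 w p.i. 5 were lower (16.7% of all genes) and 0 higher, led by Csn3 (-2.53, adjusted p = 5.38e-14) and Lalba (-1.31, adjusted p = 1.97e-09). The mean score of the list in 4T1 tumors went from 1.23 to 0.51 and -0.94 over the time points, in Py230 tumors from 0.69 to 0.42 and -0.15, in BALB/c glands from 1.17 to 0.66 and 0.49 and in C57BL/6 glands from 0.65 to 0.33 and 0.27. In Py230 tumors Elf5 thus scored 1.17 ± 0.13 (SD, n = 3) at 6 w p.i. beside a lower milk list, and Csn3 kept a score of 2.33 ± 0.22.

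**Figure D3:**
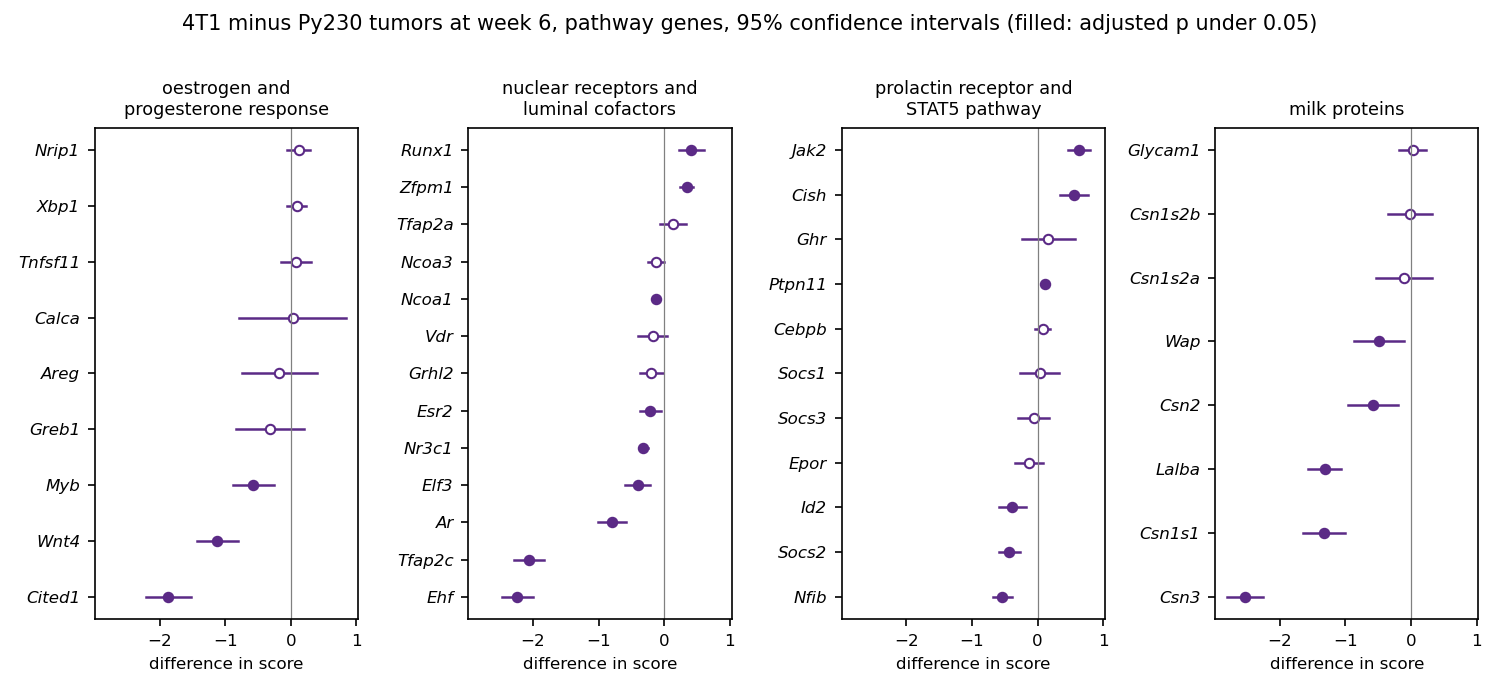
Difference in score between 4T1 and Py230 tumors at week 6 (horizontal axis) for the measured genes of 4 pathway lists, with 95% confidence intervals from limma and filled points for an adjusted p under 0.05. Ehf, Tfap2c, Cited1 and Csn3 lie furthest to the left, and Jak2 and Cish are higher in 4T1 tumors.

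The likeness of profiles over the 12 group means is given as a description, since these points share their libraries and the week 6 4T1 group weighs on them. Among the 9, Pgr and Prlr (r = 0.903), Prlr and Foxa1 (0.896) and Prlr and Elf5 (0.882) were most alike, and Gata3 had r between -0.43 and 0.65 with the other 8. Where the mean normalized count was 100 or more, Elf5 was most like Csn3 (r = 0.998), then Foxi1 (0.979) and Tmprss13 (0.971). Prlr was most like Mlph (0.994), Tmem30b (0.985) and Tmem56 (0.984). The nearest to Foxa1 were Gipc2 (0.977), Cacna1c (0.976) and Ift27 (0.973), and among those nearest to Spdef were Kdm4c (0.975) and D630039A03Rik (0.972). Esr1 was nearest to Gm37494, Nr2f2 and Zfhx4 (0.981 to 0.983), Pgr to Gm16485, Plpp3 and Ptn (0.963 to 0.965) and Gata3 to Evpl, Dlg3 and Cdc42bpg (0.929 to 0.943). Stat5a was nearest to Gata2, Gm47021 and Spns3 (0.934 to 0.944), and Stat5b to Rgs7bp, Spop and Ccdc85a (0.968 to 0.979).

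Markers of other cell types moved in the same libraries. In bulk tissue, fewer cells of a type and less RNA per cell cannot be told apart. The mean score of 10 luminal epithelium markers (among them keratins, claudins, Epcam, Cdh1 and Muc1) stayed between 1.12 and 1.47 in all 12 groups. In 4T1 tumors of 6 w p.i. it was 1.37, 0.94 and 1.37, with Muc1 at -0.14 and Krt8 at 1.81. In these tumors 4 of the 10 were lower and 0 higher than in Py230 tumors, beside 16.7% and 24.1% of all genes. The 8 myoepithelium markers had a mean of 0.037 in 4T1 tumors of 6 w p.i. (-0.28 to 0.32 over the 3 libraries, with Oxtr at -0.65). That mean was 1.04 in Py230 tumors (0.93 to 1.19) and 1.42 in BALB/c glands (1.28 to 1.51). Of the 8, 7 were lower in 4T1 than in Py230 tumors, beside 16.7% of all genes.

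Adipocyte markers (8 genes) had a mean of 0.045 in 4T1 tumors (-0.055 to 0.21) and 0.495 in Py230 tumors (0.12 to 1.09) of 6 w p.i. against 1.89 in BALB/c and 2.10 in C57BL/6 glands. All 8 were lower than in the glands in both models, where 21.5% (4T1) and 18.7% (Py230) of all genes were lower. Between the tumors 0 of the 8 differed, beside 40.8% of all genes. The 6 fibroblast markers had a mean of 1.73 in 4T1 and 1.64 in Py230 tumors of 6 w p.i. against 2.11 in BALB/c and 2.16 in C57BL/6 glands, with 2 and 4 of them lower than in the glands. The 5 endothelium markers had 0.856 and 0.829 in these tumors against 1.16 and 1.19, with 3 and 4 lower. For both lists the shares of all genes that were lower were again 21.5% and 18.7%. The 8 leukocyte markers had means from 0.53 to 0.62 over the 3 weeks in 4T1 and from 0.21 to 0.35 in Py230 tumors. At 6 w p.i. 2 of the 8 were higher and 0 lower in 4T1 tumors, beside 24.1% and 16.7% of all genes. The count of higher genes thus lay near the share of all genes. The means of 8 T cell markers over the weeks were 0.22, 0.20 and -0.10 in 4T1 and -0.32, -0.16 and -0.03 in Py230 tumors. They were -0.38, -0.39 and -0.48 in BALB/c and -0.23, -0.40 and -0.10 in C57BL/6 glands. Skeletal muscle markers ranged widely within groups, from -0.835 to 1.82 in Py230 tumors of 3 w p.i. The 4T1 replicate 1 of 3 w p.i., which was lowest in Prlr, Pgr, Esr1, Foxa1 and Spdef, had an adipocyte mean of 0.81 beside 2.04 and 2.20, a myoepithelium mean of 0.80 beside 1.13 and 1.14 and a leukocyte mean of 0.94 beside 0.40 and 0.42. The Py230 replicate 1 of 3 w p.i., lowest in Esr1, Pgr, Prlr and Foxa1 and highest in Spdef, had an adipocyte mean of 0.49 beside 1.75 and 2.01. The part of these cell types in the differences of the 9 genes was not tested.

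**Figure D4:**
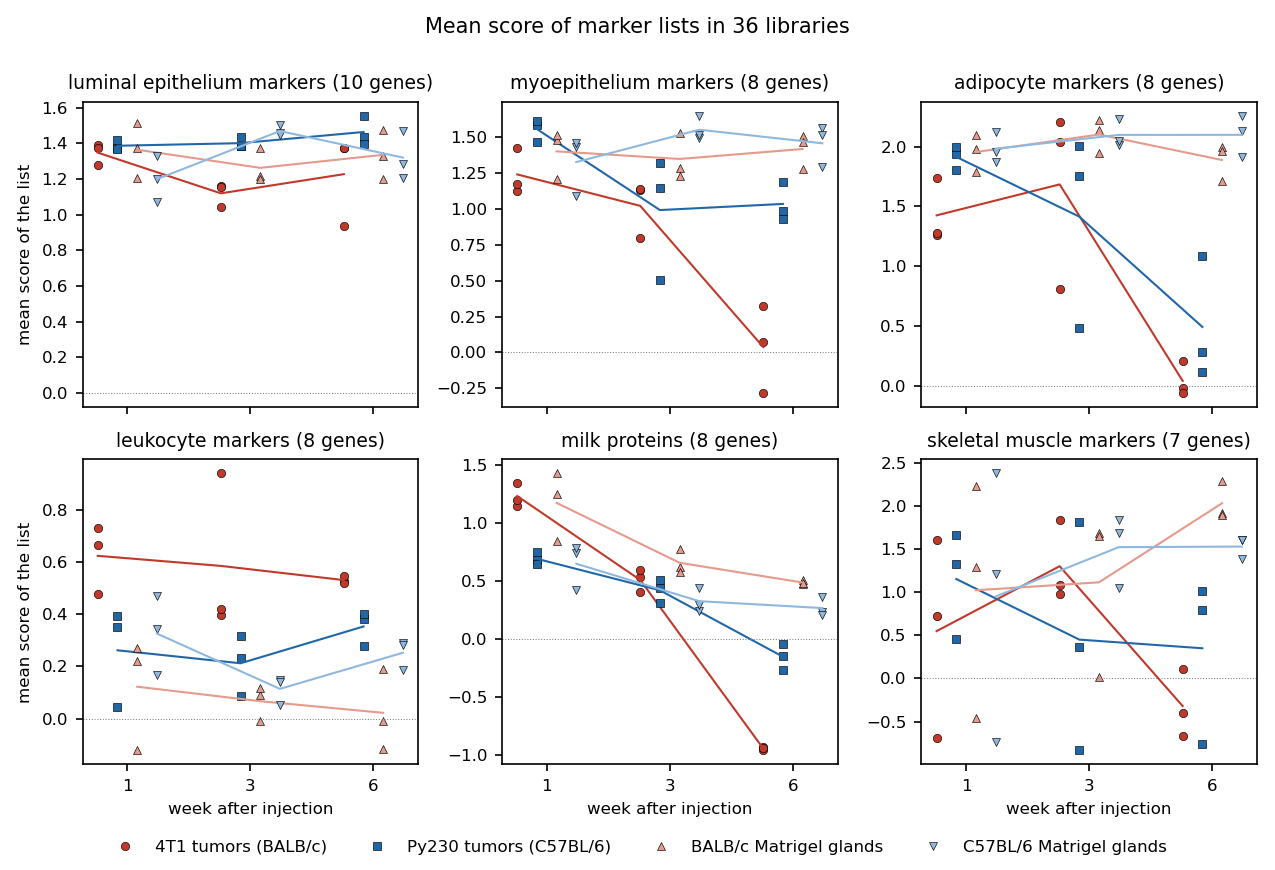
Mean score (vertical axis) of 6 marker lists by week after injection, with 1 point per library, 3 libraries per group, and lines joining group means. Myoepithelium markers are lowest in 4T1 tumors of week 6 and are also lower in Py230 tumors after week 1. Milk proteins decline over the weeks in both tumor models and both gland strains, and are lowest in 4T1 tumors of week 6. Adipocyte markers fall in both tumor models, and the luminal epithelium markers stay between 0.938 and 1.555 in all 36 libraries.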

How the data were processed

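RNA of 18 tumors and 18 Matrigel glands was sequenced from stranded libraries, aligned by the authors with STAR to mm10 and normalized with DESeq2, no versions being given in the sources used here. The deposited table holds scores, a log-like value that the authors standardized within each library so that its 21650 genes average 0 with an SD of 1. The step that made them was not described and the sequencing depth is unknown, so no counting interval is given. Deposited comparison tables with the authors' mean normalized count (a signal per gene), log2 fold changes and p-values, and a table of gene set results, were not used beyond the mean count and the gene names: 16266 genes took their name from them and 5384 from the reference.

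Group means of the 12 groups were fitted with limma 3.58.1 in R 4.3.3 (variance trend, robust), p-values were adjusted over all genes and the threshold was 0.05. On simulated data for 4T1 against Py230 tumors at 1 w p.i. over 21650 genes, 83 of 100 changes of 0.5 and 99 of 100 changes of 1 were recovered, and 8 unchanged genes were called. The simulation used normal noise with the same SD for a gene in every group and changed few genes, unlike the real libraries. It therefore cannot give the recovery or the false calls of the real comparisons. Named genes are the 9 members, for each pathway list those with the smallest p-values between the tumors, and the 3 genes most like each member. A few others were named after their values were seen: Nrip1, Greb1, Areg, Zfpm1, Runx1, Cish, Socs2, Muc1, Krt8 and Oxtr. The members and lists were chosen with earlier results of these data known. A cofactor and a gene like Spdef are not reported here. Same-numbered BALB/c and C57BL/6 glands of 1 w p.i. deviated together (correlations 0.413, 0.790 and 0.558), and no label gives a pairing. Their skeletal muscle markers also ran alike by number, with 1.29, 2.24 and -0.46 in BALB/c and 1.21, 2.38 and -0.74 in C57BL/6 glands. The cause was not tested. Alternatives were a replicate block, a minimum mean count of 10, no variance trend, quantile normalization, robust rescaling, fits on only the groups compared, subtraction of the strain difference and omission of each library. Figures were drawn with matplotlib 3.10.9.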

Additional observations from a re-analysis of the deposited data

Results flagged for a closer look

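The change from gland to tumor differed between the models by the interaction term of the limma fit for 7 values. At 3 w p.i. it was -0.957 in score for Spdef and -0.434 for Elf5. At 6 w p.i. it was -2.31 for Prlr, -1.93 for Elf5, -1.55 for Foxa1, -1.17 for Spdef and -1.15 for Pgr. Each is the 4T1 tumor minus BALB/c gland difference less the Py230 tumor minus C57BL/6 gland difference. Cell line, strain and the dose of inoculated cells cannot be told apart in it.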

How the results depend on the processing

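Single-gene values were recomputed only where the fit of all 12 groups had made a call, so calls gained are not counted in them. Over 642 such values, 586 kept direction and call, 56 kept direction but lost the call and 0 turned. Of the 642, 336 came from leaving out 1 library, and 35 of these lost the call. The fit of only the groups compared lost 14 of 49 calls, and subtracting the strain difference lost 5 of 12. Fitting only the groups compared left 0 members called for 4T1 tumors against BALB/c glands at 1 w p.i., 3 between the tumors at 3 w p.i., 0 for Py230 tumors against glands at 3 w p.i. and 1 over time in Py230 tumors. The share of all genes called in those fits was not computed, so these counts cannot be read as particular to the members. Subtracting the Matrigel strain difference left 0 between the tumors at 1 w p.i. (0.305% of all genes) and 2 at 3 w p.i. (9.15% of all genes). For Py230 tumors against glands at 3 w p.i. the replicate block, a mean count of at least 10 and quantile normalization each called 2 members. Among all genes they called 4563, 4070 and 4286, beside 4267 without these changes. Same-number libraries deviated together in all 3 pairs only for BALB/c against C57BL/6 glands at 1 w p.i. There the block left 0 members called, as without it. The block gives each replicate number 1 effect shared by all 12 groups, so it cannot take up a pairing of these glands alone. Whether such a pairing matters there was not tested. In the other comparisons of groups not every same-number pair had a correlation of deviations over 0.1 (10 of 36 pairs over all, range -0.466 to 0.790). The block kept all 49 single-gene calls it was run on.

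Leaving out 1 library gave 1 to 3 members between the tumors at 1 w p.i. and 4 to 5 at 3 w p.i. Against BALB/c glands 4T1 tumors had 0 to 2 at 1 w p.i. and 0 to 1 at 3 w p.i., and Py230 tumors against their glands 1 to 3 at 3 w p.i. (3 without Py230 replicate 3). Between glands it gave 0 to 1 at 1 and at 3 w p.i., over time 6 to 9 in 4T1 tumors, 3 to 5 in Py230 tumors and 0 to 1 in C57BL/6 glands. At 6 w p.i. counts stayed at 5 to 6 between the tumors, 8 for 4T1 and 4 for Py230 tumors against glands. The share of all genes called without 1 library was not computed, so these counts too cannot be read as particular to the members. Robust rescaling moved the share of higher calls among all genes between tumors at 6 w p.i. from 59.1% to 71.0%, and ended the calls of Gata3 and Spdef from 3 to 6 w p.i. in 4T1 tumors (adjusted p = 0.0536 and 0.155). The causes were not tested.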
